A study of Mus musculus with 4 samples.

Results

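The visceral endoderm and lipoprotein genes described here are *Afp*, *Ttr*, *Apoa1*, *Apob*, *Apoe*, *Amn*, *Cubn*, *Rbp4* and *Trf*, which encode secreted carrier proteins and an endocytic receptor pair. These 9 genes were named as a list, not by a cut on their values, but with earlier results of these data known. They were taken from the 55602 genes of the count table by gene identifier and symbol. Total RNA was sequenced from day 12 cells of the JB1 line, male mouse ESCs of hybrid origin whose mother was JF1 and whose father was C57BL/6 (B6). The 4 libraries were 2 wild-type (WT) and 2 *Zfp57*-/- replicates, the mutant being a line derived from JB1, so that each genotype stands for 1 line. All 4 cultures went through the same corticogenesis protocol in serum-free DDM medium, with 1 µM of the hedgehog inhibitor cyclopamine from day 2 to day 10. ZFP57 is a zinc finger protein that maintains methylation at imprinting control regions, and the comparison asks how its loss changes gene expression after neural differentiation.

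Visceral endoderm is the extraembryonic epithelium that surrounds the early mouse embryo and feeds it before the placenta works. It takes up maternal proteins through the cubilin-amnionless receptor and megalin, and it secretes lipoproteins, alpha-fetoprotein, transferrin and the retinol carrier proteins, as the liver does later. Most of these genes are not particular to it, since choroid plexus makes transthyretin, glia and macrophages make apolipoprotein E, and oligodendrocytes make transferrin.

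Promoter sequence was available for 7 of the 9 genes (all but *Ttr* and *Trf*), as RefSeq windows of 300 bases on GRCm38.p6 that run from 250 bases before a transcription start to 50 bases after it. Both strands were searched for GATAA (the GATA factor motif), TGTTTAC (FOXA) and CAAAGTC (HNF4). Among all 32851 mouse windows, 25.4% held GATAA, 3.65% TGTTTAC and 4.44% CAAAGTC. *Cubn* and *Amn*, which encode the 2 chains of one receptor, held none of the 3 motifs, nor did *Afp*. *Apob* held GATAA on the reverse strand 153 bases before the start, and *Apoa1* held it 16 bases after the start. Of 3 alternative *Apoe* starts, the one inside the gene at chr7:19698349-19698648 held TGTTTAC on the reverse strand 5 bases before the start, and the outermost window held none. *Rbp4* held TGTTTAC, on the reverse strand, 241 bases before its outermost start. Windows are shown for the genes on which the results below turn, with matches in capitals: *Cubn* and *Apoe* as the 2 members with the smallest p-values, *Apob* as the member whose allelic balance differed between genotypes, and *Afp* as the classical marker. They lie at chr2:13491827-13492126 (minus strand) for *Cubn*, chr7:19699139-19699438 (minus) for the outermost and chr7:19698349-19698648 (minus) for the inner *Apoe* window, chr12:7977427-7977726 (plus) for *Apob* and chr5:90490464-90490763 (plus) for *Afp*.
Cubn: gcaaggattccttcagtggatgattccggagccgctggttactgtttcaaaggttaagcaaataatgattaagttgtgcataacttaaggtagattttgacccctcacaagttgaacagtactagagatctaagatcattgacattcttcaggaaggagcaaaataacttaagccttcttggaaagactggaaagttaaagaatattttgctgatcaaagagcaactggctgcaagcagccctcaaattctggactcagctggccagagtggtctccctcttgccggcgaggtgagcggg
Apoe, outermost: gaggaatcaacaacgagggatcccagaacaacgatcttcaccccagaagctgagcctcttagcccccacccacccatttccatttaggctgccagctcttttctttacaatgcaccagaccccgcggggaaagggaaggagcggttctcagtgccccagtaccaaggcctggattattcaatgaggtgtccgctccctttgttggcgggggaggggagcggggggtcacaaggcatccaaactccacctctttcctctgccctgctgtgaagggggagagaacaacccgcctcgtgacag
Apoe, inner: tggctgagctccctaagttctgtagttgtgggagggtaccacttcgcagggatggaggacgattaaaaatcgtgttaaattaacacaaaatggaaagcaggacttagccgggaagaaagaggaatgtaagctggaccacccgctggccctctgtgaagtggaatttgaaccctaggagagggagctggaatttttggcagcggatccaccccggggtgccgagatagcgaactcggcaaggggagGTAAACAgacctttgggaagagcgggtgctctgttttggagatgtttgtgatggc
Apob: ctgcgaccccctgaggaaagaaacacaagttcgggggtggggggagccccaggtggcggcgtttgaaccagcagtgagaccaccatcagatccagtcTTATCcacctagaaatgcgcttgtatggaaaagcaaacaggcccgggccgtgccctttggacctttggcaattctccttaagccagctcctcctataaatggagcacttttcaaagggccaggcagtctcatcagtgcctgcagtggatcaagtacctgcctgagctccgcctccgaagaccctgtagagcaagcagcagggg
Afp: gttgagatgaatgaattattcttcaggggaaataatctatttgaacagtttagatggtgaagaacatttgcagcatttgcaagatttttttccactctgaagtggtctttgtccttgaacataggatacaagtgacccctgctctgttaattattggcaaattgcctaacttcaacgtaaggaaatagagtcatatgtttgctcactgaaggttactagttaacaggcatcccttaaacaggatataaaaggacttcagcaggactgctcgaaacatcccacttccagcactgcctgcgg

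Counts assigned to genes summed to between 7663520 and 10337082 per library. *Zfp57* had 392 and 249 counts in the WT and 158 and 144 in the *Zfp57*-/- libraries, so that reads remained over the targeted gene. The libraries are labelled as neural progenitors, and all 7 neural progenitor markers were detected in each, but edgeR and DESeq2 each called 5 of the 7 lower in *Zfp57*-/- cells and 0 higher (1 at an unadjusted p below 0.05 in edgeR), for instance *Hes5*, a Notch target, with 317, 459, 12 and 10 counts. WT replicate 1 stood apart in several respects that touch the results below, among them 14634 *Actb* counts against 35070 to 39257 in the other libraries.

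Of 19995 genes with more than 8 counts over the 4 libraries, edgeR called 5522 (27.6%) at an adjusted p below 0.05, 2607 (13%) higher and 2915 (14.6%) lower in *Zfp57*-/- cells. All 9 members were tested. Among them, 5 were higher in *Zfp57*-/- cells (*Apoe*, *Cubn*, *Amn*, *Rbp4* and *Trf*), 0 were lower, and *Afp*, *Ttr*, *Apoa1* and *Apob* did not pass. Their median log2 fold change, *Zfp57*-/- over WT, was 1.94 (1.89 with *Trf*, which had 0 counts in WT, at its lower bound), beside -0.01 over all genes tested. At an unadjusted p below 0.05, edgeR had 6 members higher and 1 lower, and DESeq2 called 4 higher and 0 lower at the adjusted threshold. For 6 of the 9, both mutant libraries lay above both WT libraries, as they did for 33.7% of all genes tested. The group was not uniform: *Ttr*, *Apoa1* and *Apob* were each highest in WT replicate 1, and without that library 7 members were higher in mutant cells, *Afp* and *Apob* being added. When libraries were scaled on *Actb*, the median of all log2 fold changes became -0.68, 486 genes were higher and 2994 lower, and of the members *Apoe*, *Cubn* and *Trf* were higher and *Ttr* was lower. In bulk RNA, fewer cells of a type and less RNA per cell cannot be told apart.

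**Figure D1:**
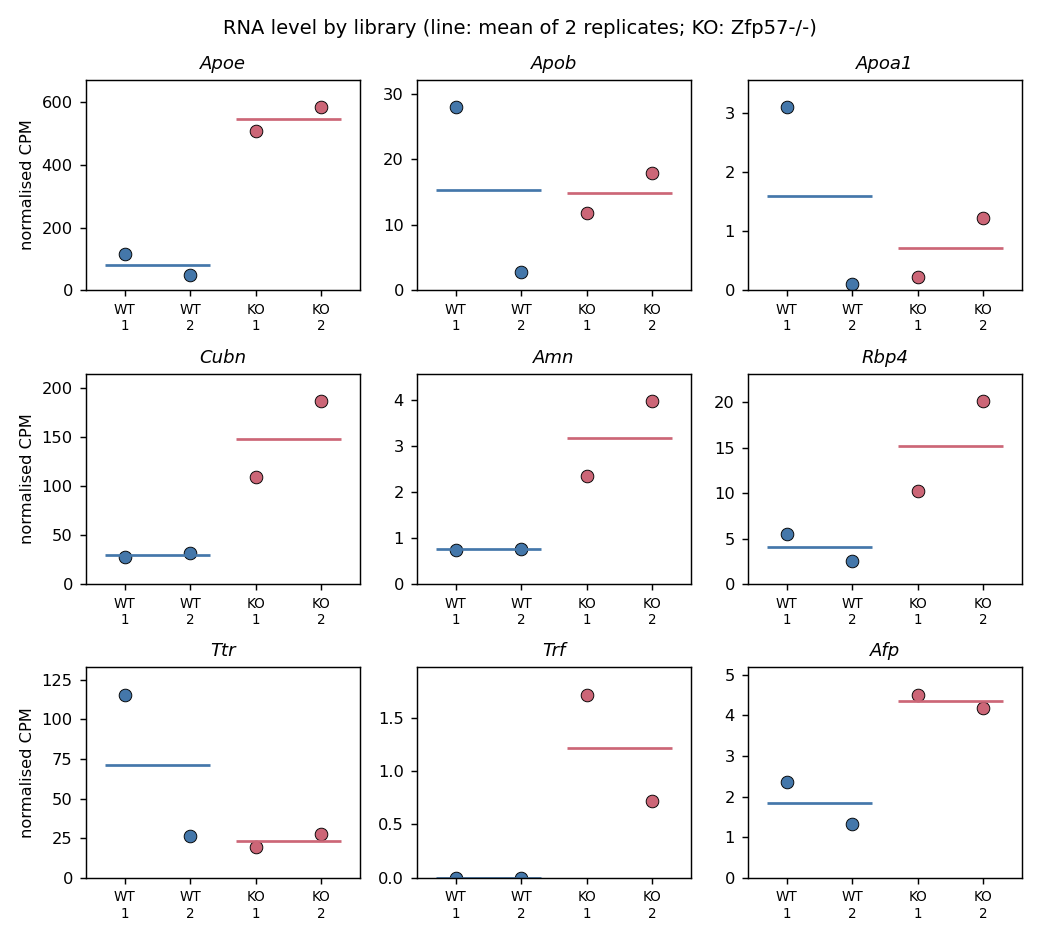
Level of each of the 9 genes in each library, as CPM after TMM scaling (y axes, linear and starting at 0), for 2 WT (blue) and 2 Zfp57-/- (KO, red) libraries, with a line at the mean of each genotype. The red points lie above the blue points for Apoe, Cubn, Amn, Rbp4, Trf and Afp, while Apob, Apoa1 and Ttr have their highest point in WT replicate 1.

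Among the apolipoproteins, *Apoe*, the ligand by which lipoprotein remnants are taken up by cells, lies at chr7:19696109-19699188 on the minus strand. It had 927 and 507 counts in WT and 4744 and 5717 counts in *Zfp57*-/- libraries. In counts per 1000000 after TMM scaling (normalised CPM, the unit of all CPM values below), these were 114.8, 48.4, 509.2 and 584.4. Both mutant libraries were above both WT libraries, and the WT replicates differed from each other more, in proportion, than the mutant replicates did. The mean was 81.6 ± 46.95 CPM (SD, n = 2) in WT and 546.8 ± 53.14 in mutant cells, and the fitted log2 fold change was 2.75 (SE 0.35, edgeR adjusted p = 0.000411). Per length, in transcripts per 1000000 (TPM, from counts divided by exon length), *Apoe* moved from ranks 545 and 2199 among all genes in the WT libraries to ranks 175 and 145 in the mutant libraries.

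Glia and macrophages also express *Apoe*. Of 8 astrocyte and radial glia genes, edgeR called 0 higher and 5 lower in *Zfp57*-/- cells (1 and 5 at an unadjusted p below 0.05, 0 and 4 by DESeq2), with a summed level of 506.6 to 581 CPM in WT and 264.4 to 295 CPM in mutant libraries. *Slc1a2*, an astrocyte glutamate transporter, had 1179, 1103, 26 and 27 counts. Of 9 microglia and macrophage genes, *C1qb*, *Tyrobp* and *Trem2* were at 0 in all 4 libraries, and 2 had enough counts to be tested. The lysosomal *Cd68* was called higher in *Zfp57*-/- cells, with 36, 19, 90 and 76 counts. *Csf1r*, with 2, 8, 15 and 33 counts, did not pass (log2 fold change 2.22, SE 0.78, edgeR adjusted p = 0.0587). At an unadjusted p below 0.05 in edgeR, 2 were higher and 0 lower, and DESeq2 called 1 higher and 0 lower. The list summed to 5.077 and 3.055 CPM in WT and 11.59 and 11.24 CPM in mutant libraries. The part of these cells in the *Apoe* difference was not tested.

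*Apoe* is the end of an apolipoprotein cluster of 4 genes over 27.6 kb on chromosome 7. *Apoc1*, which lies next to it and encodes a small lipoprotein lipase inhibitor, had 3 and 0 counts in WT and 47 and 50 counts in *Zfp57*-/- libraries. This was a depth-adjusted count ratio of 31.4, with a 95% counting interval from 10.4 to 155, and an edgeR adjusted p of 0.0032. *Apoc4* and *Apoc2* of the same cluster had 0 counts in all libraries. *Apoa1* belongs to another cluster of 4, over 43.3 kb on chromosome 9, in which *Apoc3* and *Apoa5* had 0 counts and *Apoa4* had 4, 3, 4 and 7.

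*Apob* encodes the structural protein of chylomicrons and very low density lipoproteins (chr12:7977648-8016835). Its counts were 226 and 29 in WT and 110 and 175 in *Zfp57*-/- libraries, or 27.99, 2.768, 11.81 and 17.89 CPM. The WT replicates lay on either side of both mutant replicates, with WT replicate 1 at 10.11 times the CPM of WT replicate 2. The log2 fold change was -0.03 (SE 0.84, edgeR adjusted p = 0.984). Without WT replicate 1 it was 2.39 (adjusted p = 1.71e-11), and without WT replicate 2 it was -0.91 (adjusted p = 8.68e-05), so that the direction turned on which WT library was kept. In such edgeR fits of 3 libraries, the lone library of a genotype is assumed to vary like the replicates of the other.

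*Apoa1*, the main protein of high density lipoproteins (chr9:46228580-46230466), had the same order as *Apob* with fewer reads. There were 25 and 1 counts in WT and 2 and 12 counts in *Zfp57*-/- libraries, or 3.096, 0.09546, 0.2147 and 1.227 CPM. The log2 fold change was -1.08 (SE 1.21, edgeR adjusted p = 0.551), and it was 2.75 without WT replicate 1 (adjusted p = 0.12) and -2.07 without WT replicate 2 (adjusted p = 0.0122).

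The other 23 genes of lipoprotein assembly and remodelling gave 15 that were tested, of which edgeR called 6 higher in *Zfp57*-/- cells and 0 lower (0 also at an unadjusted p below 0.05, and 4 and 0 by DESeq2), with a median log2 fold change of 0.56. Beside *Apoc1*, they were *Apoa2*, another HDL protein, with 3, 4, 49 and 37 counts and a log2 fold change of 3.54 (SE 0.64, edgeR adjusted p = 0.00289), *Mttp*, *Soat2*, *Lipg* and *Pltp*. *Mttp*, the transfer protein that loads lipid onto apolipoprotein B, had 10.28, 9.26, 19.32 and 35.57 CPM and a log2 fold change of 1.49 (SE 0.32, edgeR adjusted p = 0.0069). It thus differed little between the WT replicates, and the ratio of *Apob* to *Mttp* TPM was 1.21 in WT replicate 1 and 0.133, 0.272 and 0.224 in the other libraries. *A1cf*, a cofactor of *Apob* mRNA editing, was at 0 in all libraries, while the editing enzyme *Apobec1* had 13, 6, 31 and 28 counts. The most abundant genes of the list per length, *P4hb* and *Sar1b*, which serve secretion in general, did not pass the test.

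*Cubn* encodes cubilin, the peripheral receptor that binds apolipoprotein A-I, transferrin and vitamin B12 complexes (chr2:13276338-13491813, minus strand). It had 221 and 333 counts in WT and 1018 and 1831 counts in *Zfp57*-/- libraries, or 27.37, 31.79, 109.3 and 187.2 CPM. The groups did not overlap, and the WT replicates were close. The mean was 29.58 ± 3.128 CPM (SD, n = 2) in WT and 148.2 ± 55.07 in mutant cells, with a log2 fold change of 2.32 (SE 0.27, edgeR adjusted p = 0.000226).

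*Amn* encodes amnionless, the membrane chain that cubilin needs to reach the cell surface (chr12:111271095-111276426). It had 6 and 8 counts in WT and 22 and 39 in *Zfp57*-/- libraries, or 0.743, 0.7637, 2.361 and 3.986 CPM. Its groups did not overlap either, with a log2 fold change of 2.06 (SE 0.63, edgeR adjusted p = 0.0364). The call was lost with DESeq2 (adjusted p = 0.0676) and without either mutant library (adjusted p = 0.107 and 0.361). Per length, *Cubn* was 4.55 and 5.14 times as abundant as *Amn* in WT and 5.71 and 5.79 times in mutant libraries, a narrow range beside the difference of each gene between genotypes.

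*Lrp2* encodes megalin, the large endocytic receptor that works with cubilin, and it had another pattern, with 487.3 and 238.6 CPM in WT and 245.3 and 362.8 CPM in *Zfp57*-/- libraries. The *Cubn* to *Lrp2* TPM ratio was 0.0628 and 0.149 in WT and 0.498 and 0.577 in mutant libraries. Of 15 endocytic receptors and partners, all tested, 5 were higher and 2 were lower in *Zfp57*-/- cells, with a median log2 fold change of 0.27. Among those higher were *Dab2*, a clathrin adaptor for endocytic receptors, and the lysosomal proteases *Ctsl* and *Lgmn*. *Dab2* had 93.37, 175.4, 255.9 and 349.6 CPM, a log2 fold change of 1.17 (SE 0.29, edgeR adjusted p = 0.0158). The receptors *Vldlr* (222.5, 109.8, 22.54 and 23.71 CPM) and *Lrp1* (564.4, 289.8, 171.2 and 170.7 CPM) were lower, with log2 fold changes of -2.84 and -1.32 (edgeR adjusted p = 0.00017 and 0.00781). Under *Actb* scaling, and without *Zfp57*-/- replicate 2, 0 genes of the list were called higher and 2 lower, so that the *Dab2*, *Ctsl* and *Lgmn* calls were lost.

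Among the carriers of retinol, *Rbp4* encodes the plasma retinol binding protein (chr19:38116620-38125321, minus strand). It had 44 and 27 counts in WT and 95 and 197 in *Zfp57*-/- libraries, or 5.449, 2.578, 10.2 and 20.14 CPM. Both mutant libraries were above both WT libraries, and within each genotype the replicates differed by about the same factor. The log2 fold change was 1.94 (SE 0.45, edgeR adjusted p = 0.0111). The call was lost without *Zfp57*-/- replicate 2 (log2 fold change 1.36, adjusted p = 0.173).

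*Ttr* encodes transthyretin, the carrier that binds RBP4 and thyroxine (chr18:20665280-20674321). It went the other way from *Rbp4*, with 933 and 276 counts in WT and 181 and 268 in *Zfp57*-/- libraries, or 115.5, 26.35, 19.43 and 27.39 CPM. WT replicate 1 was 4.385 times as high as WT replicate 2, which lay between the mutant replicates. The log2 fold change was -1.59 (SE 0.61, edgeR adjusted p = 0.0974), and without WT replicate 1 it was -0.20 (adjusted p = 0.451). With each of the other libraries left out, *Ttr* passed as lower, at -2.30 without WT replicate 2, -1.36 without *Zfp57*-/- replicate 1 (edgeR adjusted p = 0.0283) and -1.86 without *Zfp57*-/- replicate 2 (adjusted p = 0.00235). *Ttr* and *Rbp4* therefore did not keep a common ratio, since *Ttr* TPM was 23.2 and 11.2 times *Rbp4* TPM in WT and 2.08 and 1.49 times in mutant libraries.

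**Figure D2:**
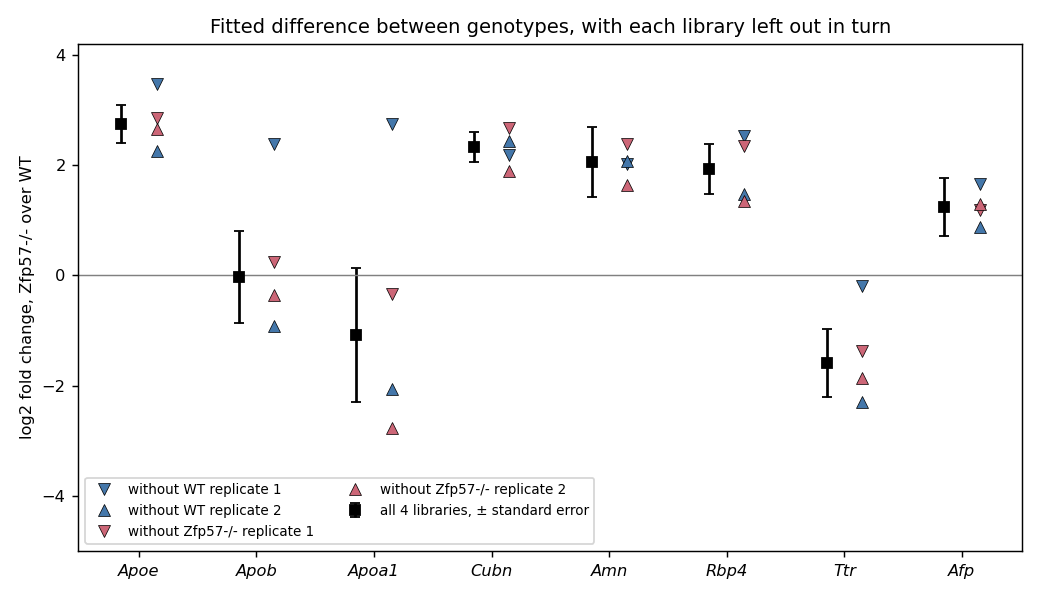
Fitted log2 fold change of 8 members, Zfp57-/- over WT (y axis), from all 4 libraries (black squares, bars are the standard error) and with each library left out in turn (triangles, blue for a WT and red for a Zfp57-/- library). Trf, with 0 counts in WT, is not drawn. Apoe, Cubn, Amn, Rbp4 and Afp stay above 0 in each fit, Ttr stays below 0 and comes to -0.20 without WT replicate 1, and Apob and Apoa1 change sign.

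Choroid plexus epithelium is a neural source of transthyretin, and a selection of 13 genes listed for it was compared beside *Ttr*. Of these, 10 were highest in WT replicate 1, and the summed level was 146.6 and 104.1 CPM in WT and 43.69 and 65.93 CPM in *Zfp57*-/- libraries. Of the 11 tested, edgeR called 0 higher in mutant cells and 6 lower, and DESeq2 called 1 higher and 6 lower (unadjusted p below 0.05 in edgeR, 1 and 7). *Slc4a5*, a bicarbonate transporter of this epithelium, had 125, 28, 15 and 22 counts, *Sostdc1* had 30, 8, 2 and 2, and the potassium channel gene *Kcnj13* had 12, 4, 0 and 0. *Prlr* went the other way, with 22, 111, 125 and 210 counts. The counts of calls depend on which genes are listed. *Clic6* (246, 174, 477 and 771 counts) and *Folr1* (47, 39, 181 and 160 counts) are outside this selection and were called higher in mutant cells. Both are counted with the other visceral endoderm genes below. *Msx1*, with 311, 447, 20 and 34 counts, was lower in mutant cells but was not highest in WT replicate 1. The defining markers *Kcne2* and *Kl* were near 0 in all libraries: *Kcne2* had 5 counts in WT replicate 1 and 0 in the other 3 libraries, and *Kl* had 2, 2, 3 and 0. The part of choroid plexus cells in the *Ttr*, *Apob* and *Apoa1* levels was not tested.

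*Trf* encodes transferrin, the iron carrier of plasma (chr9:103204001-103230444, minus strand). It had 0 and 0 counts in WT and 16 and 7 in *Zfp57*-/- libraries, which was at least 3.7-fold higher against a floor of 3 counts per WT library (edgeR adjusted p = 0.0178). Both mutant libraries were above both WT libraries, and without *Zfp57*-/- replicate 1 the gene fell below the count filter. Of 9 oligodendrocyte genes, *Mog* was at 0 in all libraries, 3 were higher (*Olig1*, *Olig2* and *Mobp*) and 2 were lower, among them *Mbp*, and the list summed to 53.87 and 63.87 CPM in WT and 38.53 and 48.65 CPM in mutant libraries. The part of these cells in the *Trf* counts was not tested.

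Of 15 other genes of retinol and iron handling, 13 were tested, 6 were higher and 3 were lower in *Zfp57*-/- cells, with a median log2 fold change of 0.49. The retinoic acid hydroxylase *Cyp26a1* had 8.792, 4.582, 69.77 and 72.67 CPM, a log2 fold change of 3.43 (SE 0.30, edgeR adjusted p = 3.5e-05). Ferritin light chain (*Ftl1*, 273.3, 451.6, 1084 and 985.1 CPM), the iron exporter *Slc40a1*, the ferrireductase *Steap3*, the haem oxygenase *Hmox1* and the retinol dehydrogenase *Rdh10* were also higher. *Cp*, the copper ferroxidase ceruloplasmin, was lower, with 85.94, 29.78, 6.548 and 6.133 CPM, as were the ferroxidase *Heph* and the retinoic acid synthesizing *Aldh1a2*. *Cp* was, like *Ttr*, highest in WT replicate 1. The transferrin receptor *Tfrc* did not pass the test, at 312.1, 357.4, 331 and 323 CPM.

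*Afp*, which encodes the fetal albumin relative alpha-fetoprotein (chr5:90490737-90508907), was scarce in all libraries. It had 19 and 14 counts in WT and 42 and 41 in *Zfp57*-/- libraries, or 2.353, 1.336, 4.508 and 4.191 CPM. The groups did not overlap, but the log2 fold change of 1.25 (SE 0.52, edgeR adjusted p = 0.105) passed the test only without WT replicate 1 (1.67, adjusted p = 0.00771). Its neighbour in the same gene family, *Alb*, the plasma albumin gene, was at 0 in all 4 libraries. Of 10 mature hepatocyte genes, *Alb* included, 6 were at 0 throughout and 1 had enough counts to be tested.

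Of 28 other visceral endoderm genes, 23 were tested, 11 were higher and 2 were lower in *Zfp57*-/- cells, with a median log2 fold change of 1.39 (1.36 with genes at 0 counts in a genotype at their bound). DESeq2 called 8 higher and 2 lower. Under *Actb* scaling 1 was higher and 2 were lower, so that most of the calls in the higher direction were lost. *Spink1*, a trypsin inhibitor, had 6.811, 7.16, 106.4 and 116 CPM, with a log2 fold change of 3.99 (SE 0.22). The microvillus genes *Pdzk1* (11, 14, 70 and 116 counts) and *Vil1* (11, 9, 66 and 76 counts) were also higher, as were *Ttpa*, the tocopherol transfer protein of lipoprotein secretion, and the fibrinogen chain *Fgg* with 0, 0, 10 and 6 counts. Vitronectin (*Vtn*) and the calcium binding *S100g* were lower, *S100g* with 117.3, 77.33, 16.1 and 16.05 CPM. Of 8 anterior visceral endoderm genes, 6 were higher and 0 were lower, by edgeR, by its unadjusted p and by DESeq2 alike. The lists overlap: *Cyp26a1* is among these 6 and is also counted with the retinol and iron genes. *Soat2* is counted both with the lipoprotein genes and with the other visceral endoderm genes. *Cer1*, a secreted NODAL and BMP antagonist, had 1, 1, 148 and 177 counts, a depth-adjusted ratio of 158 with a counting interval from 43.3 to 1310. *Hesx1*, a homeobox gene, had 0, 0, 39 and 39 counts, at least 12.4-fold higher against the same floor. The names of these lists do not identify the cells that held the transcripts. The part of other cell types in these differences was not tested.

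Most of the endoderm transcription factors ran against *Ttr*, *Apob* and *Apoa1* between the WT replicates. WT replicate 2 was above WT replicate 1 for 13 of the 14 factors, but barely for *Cebpa*, *Onecut1* and *Sox7* (1.002, 1.041 and 1.043 times). The median of this ratio was 0.984 over the genes tested that had counts in WT replicate 1. The summed level of the factors was 258.1 and 532 CPM in WT and 587.6 and 760.7 CPM in *Zfp57*-/- libraries. Among the 9 members, WT replicate 1 was the higher for 6. All 14 factors were tested, with 4 higher (among them *Eomes*, *Nr5a2* and *Hnf4a*) and 2 lower (*Onecut1* and *Sox7*) in mutant cells and a median log2 fold change of 0.64. *Gata4*, *Gata6*, *Sox17* and *Foxa2* did not pass, with log2 fold changes of 0.66, 0.38, 0.57 and 0.75 (edgeR adjusted p = 0.189, 0.468, 0.182 and 0.146). The paper describes the activation of *Foxa2*, *Gata4* and *Gata6* as similar in both strains. Its comparison included pluripotent cells and used upper-quartile values divided by beta-actin, whereas the test here compared differentiated cells after TMM scaling. *Hnf4a*, a nuclear receptor of liver and visceral endoderm, had 5.449, 8.019, 12.99 and 23.2 CPM, a log2 fold change of 1.42 (SE 0.35, edgeR adjusted p = 0.0156).

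**Figure D3:**
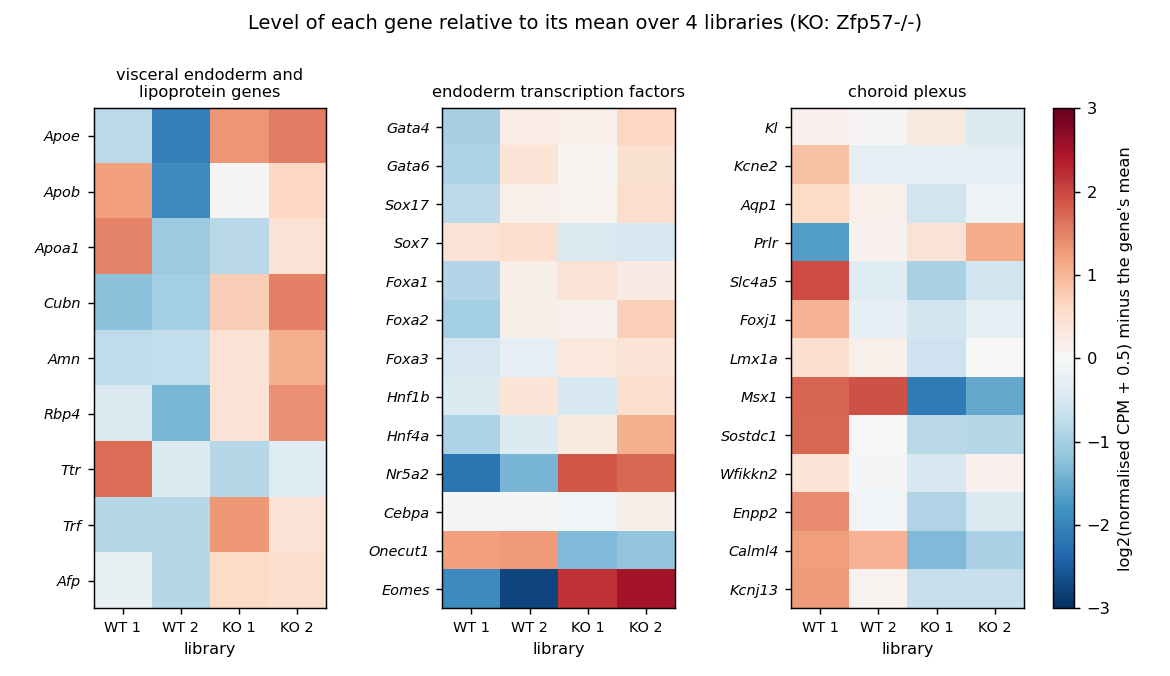
Level of each gene in each library as log2(normalised CPM + 0.5) minus the mean of that gene over the 4 libraries (colour scale from -3 to 3, red is above the mean), for the 9 members, 13 of the endoderm transcription factors and 13 choroid plexus genes. WT replicate 1 is red for Ttr, Apob and Apoa1 and for most choroid plexus genes, and blue for most of the transcription factors, while the mutant libraries are red for Apoe, Cubn, Amn and Rbp4.

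Taken as a ratio to *Gata4* plus *Gata6* CPM in the same library, *Ttr* was 1.04 in WT replicate 1 and 0.0973, 0.0816 and 0.0845 in the other libraries, and *Apob* was 0.251 against 0.0102, 0.0496 and 0.0552. The denominator was lowest in WT replicate 1, with *Gata4* at 67.12 CPM against 159.3, 150.3 and 208.6, and *Gata6* at 44.21 against 111.4, 87.8 and 115.4. Since *Ttr* and *Apob* were themselves highest in that library, it had the highest ratio for both by construction. *Cubn* had ratios of 0.246 and 0.117 in WT and 0.459 and 0.578 in *Zfp57*-/- libraries, and *Apoe* had 1.03 and 0.179 against 2.14 and 1.8, so that both stayed above WT on this scale. *Afp* did not, with 0.0211 and 0.00494 in WT and 0.0189 and 0.0129 in mutant libraries, nor did *Rbp4*, with 0.0489 and 0.00952 against 0.0428 and 0.0621.

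Parietal endoderm, the matrix-secreting layer that shares many of these factors, was represented by 13 genes, all tested. Of these, 3 were higher in *Zfp57*-/- cells (*Krt18*, *Krt8* and *Sparc*) and 0 were lower by edgeR, 8 and 0 at an unadjusted p below 0.05 and 4 and 0 by DESeq2. The other 10 did not pass by edgeR. Among them were *Thbd*, *Pth1r*, *Plat* and *Pdgfra*, with log2 fold changes of 0.38, 0.32, -0.46 and -0.53, beside a list median of 0.61. The list summed to 13570 and 21410 CPM in WT and 24230 and 34580 CPM in mutant libraries. WT replicate 2 was above WT replicate 1 for 12 of the 13. *Col4a1* alone, a basement membrane collagen, had 3579, 5907, 6379 and 9442 CPM, while the 9 members together summed to 297.3, 114.1, 668.7 and 847 CPM. The part of parietal endoderm cells in the differences of the members was not tested.

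Per length, the order of the members differed between libraries. In WT replicate 1, *Ttr* came first with 315.4 TPM and *Apoe* next with 173.8, in WT replicate 2 they were close at 68.28 and 69.58, and in the *Zfp57*-/- libraries *Apoe* came first with 608.7 and 728.4 TPM, against 41.86 and 61.55 for *Ttr*. The ratio of *Ttr* to *Apoe* TPM was 1.81 and 0.981 in WT and 0.0688 and 0.0845 in mutant libraries. *Rbp4* (13.6, 6.108, 20.09 and 41.37 TPM) and *Cubn* (5.932, 6.542, 18.7 and 33.4 TPM) came next in the mutant libraries and in WT replicate 2, without a fixed order between them, while in WT replicate 1 *Apoa1* (8.109 TPM) and *Apob* (6.502 TPM) lay between them. *Apoa1*, *Apob*, *Amn*, *Afp* and *Trf* lay between 0 and 8.109 TPM in each library.

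The hybrid cells allowed the JF1 (maternal) and B6 (paternal) alleles to be counted where reads covered a strain SNP. The allelic ratio is JF1/(JF1 + B6), and its median over the 10977 autosomal genes tested was 0.5 in both WT libraries and 0.491 and 0.49 in the *Zfp57*-/- libraries. Only *Apob*, *Apoe*, *Cubn* and *Rbp4* had at least 10 allelic reads, scaled for depth, in both WT libraries. *Ttr* had 8, 1, 0 and 0 allelic reads and *Trf*, *Apoa1*, *Amn* and *Afp* between 0 and 21 per library, so that no allelic difference could be assessed for them. Intervals given below are 95% Wilson intervals and cover counting error only.

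*Apob* was the 1 of these 4 genes with a genotype-by-allele difference, a call made for 14.5% of all genes tested. In WT, 70 of 109 and 11 of 16 allelic reads were JF1, ratios of 0.642 (interval 0.549 to 0.726) and 0.688 (0.444 to 0.858). In *Zfp57*-/- libraries, 23 of 54 and 34 of 92 were JF1, ratios of 0.426 (0.303 to 0.558) and 0.37 (0.278 to 0.472). Both WT ratios were above both mutant ratios, the log2 JF1 to B6 ratio being 1.52 lower in mutant cells (difference -1.52, SE 0.46, edgeR adjusted p = 0.0123). The 15 nearest genes with enough allelic reads had a median ratio of 0.527 in WT (range 0.462 to 0.702) and 0.508 in mutant cells (0.417 to 0.719). The *Apob* mean ratio of 0.665 lay inside this range in WT, and its mean of 0.398 lay below it in mutant cells. The call rested on few reads and was lost with DESeq2, without WT replicate 1 and without *Zfp57*-/- replicate 2.

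The other 3 genes had no call for a difference between genotypes. *Apoe* leaned to B6 in every library, with ratios of 0.415 and 0.411 in WT and 0.45 and 0.474 in *Zfp57*-/- libraries on 146 to 1590 reads, and the log2 JF1 to B6 ratio was 0.28 higher in mutant cells (SE 0.18, edgeR adjusted p = 0.389). *Cubn* also leaned to B6, with 0.441 and 0.414 in WT and 0.36 and 0.406 in mutant libraries on 152 to 1279 reads (difference -0.23, SE 0.19, edgeR adjusted p = 0.557). The *Apoe* and *Cubn* differences between genotypes in RNA level were therefore present on both alleles, *Apoe* JF1 reads going from 95 and 60 to 652 and 753 and B6 reads from 134 and 86 to 798 and 837. *Rbp4* had ratios of 0.385 and 0.562 in WT and 0.569 and 0.705 in mutant libraries (difference 1.14, SE 0.61, edgeR adjusted p = 0.266).

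Within WT, an allelic bias was called for 3 of the 4 genes (*Apoe* and *Cubn* toward B6, *Apob* toward JF1), beside 23.6% of all genes tested. Within *Zfp57*-/- cells it was called for 3 (*Apoe* and *Cubn* toward B6, *Rbp4* toward JF1), beside 21.8%. The log2 JF1 to B6 ratio of *Cubn* was -0.67 in mutant cells (SE 0.10, edgeR adjusted p = 2.41e-08), and its mean allelic ratio there was 0.383. The 15 genes nearest to *Cubn* had a median allelic ratio of 0.475 in mutant cells, and their range of 0.352 to 0.747 included the *Cubn* value. The 15 genes nearest to *Apoe* had medians of 0.471 in WT (range 0.4 to 0.605) and 0.472 in mutant cells (0.4 to 0.682). The *Apoe* means of 0.413 and 0.462 lay inside these ranges. The *Rbp4* mean of 0.637 in mutant cells lay just above the range of its neighbours, 0.313 to 0.633. Under DESeq2, 0 of the WT calls and 1 of the mutant calls passed.

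**Figure D4:**
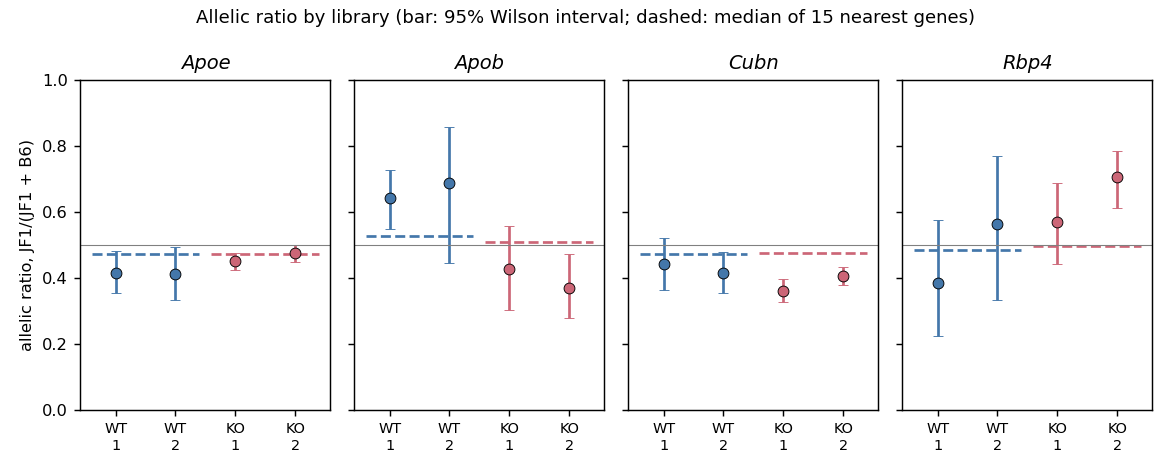
Allelic ratio JF1/(JF1 + B6) of the 4 members with enough allelic reads (y axis, 0 to 1) in each WT (blue) and Zfp57-/- (KO, red) library, with 95% Wilson intervals for counting error, the median of the 15 nearest genes (dashed) and a grey line at 0.5. Apob lies above 0.5 in both WT libraries and below it in both mutant libraries, and Apoe and Cubn lie below 0.5 in all 4.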

How the data were processed

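RNA-seq libraries of 2 WT and 2 *Zfp57*-/- cultures, labelled as biological duplicates, were analysed. The authors trimmed reads with Trimmomatic 0.36, aligned them with STAR 2.5.4a to GRCm38, kept unique alignments, and deposited raw counts of fragments per GENCODE vM20 gene from featureCounts (Subread 1.6.0), on the reverse strand setting of the stranded kit. For the allelic table the authors split reads with SNPsplit and counted each allele the same way. Gene symbols matched 54721 of 55602 identifiers. Reads shared with near-identical genes are lost under unique alignment, and reads without a strain SNP carry no allele.

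Bulk counts were 7663520 and 10225378 (WT) and 9545119 and 10337082 (*Zfp57*-/-), and allelic counts were 2837013, 3695630, 3470671 and 3826604. Genotypes were compared by edgeR 4.0.16 (R 4.3.3, robust quasi-likelihood test, TMM, more than 8 counts over the libraries, Benjamini-Hochberg adjustment over all genes, threshold 0.05, no pairing). SEs are of the fitted log2 fold change. Alleles were compared by edgeR on 8 allele columns with a term per library, for autosomal genes with at least 10 depth-scaled allelic reads in both WT libraries. TPM used the table's exon lengths. Promoter windows were searched in Python 3.11.15 (numpy 2.4.6, pandas 2.3.3), and figures were drawn with matplotlib 3.10.9. Scripts were tested on simulated data. The p-values measure the spread between the duplicate cultures of 1 line per genotype.

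The 9 members and the gene lists were chosen with earlier results of these data known. The rule for named genes took all members, from each list the up to 4 called genes per direction with the largest change and the 3 most abundant per length, not all of which are printed, and the 5 genes nearest in pattern. Other genes are named where their pattern or absence of counts is described, and these were chosen after their values were seen. Some listed genes and a planned promoter motif are not reported here, and the list counts still include those genes. Alternatives were DESeq2 1.42.0, its size factors, upper-quartile and *Actb* scaling, other count filters, a replicate block, a stricter threshold, and each library left out.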

Additional observations from a re-analysis of the deposited data

Results flagged for a closer look

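The allelic balance of *Apob* differed between the genotypes, by a test of the difference itself. The log2 JF1 to B6 ratio was 0.89 in WT and -0.63 in *Zfp57*-/- cells, a difference of -1.52 (SE 0.46, edgeR adjusted p = 0.0123, 2 libraries per genotype). Both WT libraries lay above 0.5 and both mutant libraries below it, on 125 and 146 allelic reads in all.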

How the results depend on the processing

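Counts of calls are those at an adjusted p of 0.05, and a fit without a library keeps 1 replicate of a genotype. *Apoe* and *Cubn* were higher in *Zfp57*-/- cells and past the threshold under all 11 alternatives, at log2 fold changes of 1.88 to 3.47 and 1.67 to 2.67. *Trf* passed in the 9 in which it could be tested. Of the 9 members, 2 passed at 0.01, and 4 to 8 with a library left out; without WT replicate 1 there were 7 higher, *Afp* and *Apob* being added, and without WT replicate 2 there were 5 higher and 3 lower. *Apob* had log2 fold changes of 0.52 under the replicate block, 2.39 without WT replicate 1 and 0.24 without *Zfp57*-/- replicate 1, from -0.91 to 2.39 with a library left out, and *Apoa1* from -2.78 to 2.75, the highest without WT replicate 1. *Actb* scaling moved the median of all genes to -0.68, with 3480 genes past the threshold (486 higher, 2994 lower). *Ttr* then passed (log2 fold change -2.56, adjusted p = 4.74e-05), and *Amn* (1.43, adjusted p = 0.407) and *Rbp4* (1.10, adjusted p = 0.293) did not. All genes called numbered 2901 at 0.01 and 2831 to 9947 with a library left out.

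Lipoprotein assembly genes past the threshold numbered 6, and 1 under *Actb* scaling, 3 at 0.01 and 2 to 8 with a library left out. Endocytic receptors and partners numbered 7, and 2, 4 and 2 to 10 in the same order, with 0 higher and 2 lower under *Actb* scaling and without *Zfp57*-/- replicate 2, against 5 higher and 2 lower. Retinol and iron genes numbered 9, and 5 and 5 in the first 2. Endoderm transcription factors numbered 6, and 3, 3 and 4 to 11, and 10 under the replicate block. Other visceral endoderm genes numbered 13, and 3 and 7 in the first 2, with 1 higher and 2 lower under *Actb* scaling, against 11 higher and 2 lower. The genotype-by-allele difference of *Apob* was lost (0 members) with at least 20 allelic reads, where it was not tested, and under DESeq2, and with a library left out the number of members was 0 to 1. The allelic bias calls in WT fell to 0 under DESeq2 and to between 0 and 3 with a library left out, and those in *Zfp57*-/- cells to 1 under DESeq2. The causes of these changes were not tested, except that a stricter threshold or filter leaves fewer calls or genes by construction. Deviations of same-numbered replicates correlated at 0.145 over 11736 genes, the labels give no shared batch, and the paired fit changed no member's call. *Amn*, *Afp*, *Apoa1* and *Trf*, with at most 42 counts in any library, are limited by depth.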

Other observations

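Across the 6272 genes with a mean log2 CPM of at least 5, the 5 whose pattern over the 4 libraries lay nearest to the mean pattern of the 9 members were *Gm38393* (distance 0.32 in log2 units), *Clic6* (0.363), *Gm26917* (0.399), *Slc2a3* (0.538) and *Rian* (0.545). *Clic6*, a chloride channel protein gene also listed among the other visceral endoderm genes, had 246, 174, 477 and 771 counts, and *Slc2a3*, a glucose transporter gene, had 4286, 2039, 9652 and 11575. With 4 libraries many patterns are alike, and nearness is given as a description.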
